A study of Mus musculus with 25 samples.

Results

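The genes described here are 8 markers of the stem cells and folliculostellate cells of the pituitary gland: *Sox2*, *Sox9*, *S100b*, *Aldh1a1*, *Aldh1a2*, *Cd9*, *Krt8* and *Krt18*. They were chosen by symbol, not by their values. All 8 were among the 15315 genes of the long-term table, and 7 were among the 14007 genes of the short-term table, where *S100b* was not listed. Whole pituitaries, or pituitary tumors, were profiled by RNA-seq in 25 sh*Rb* mice of 7 groups. In these mice the Rosa26 promoter drives the transactivator rtTA in most tissues, and doxycycline (dox) switches on a single shRNA against *Rb*, linked to GFP, at *Col1a1*. The line goes back to 1 embryonic stem cell clone, every mouse had carried both transgenes and had received dox as a young adult, and mice never given dox were not among the samples. The long-term groups were 6w+dox (6 weeks on dox, 3 females), 12w+dox (12 weeks on dox, 2 females and 2 males) and 12w-res (6 weeks on dox followed by 6 weeks off it, 3 females and 2 males). The short-term groups were 16w +dox (16 weeks on dox, 3 males), 1d -dox (4 females, 1 day after dox was stopped), 3d -dox (3 males, 3 days) and 5d -dox (3 females, 5 days). Sex and time off dox therefore cannot be told apart when 1d -dox or 5d -dox is set against 16w +dox, while 3d -dox against 16w +dox and 5d -dox against 1d -dox compare mice of the same sex.

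The anterior pituitary keeps a small pool of stem cells that line the cleft between its lobes and lie scattered through the gland. These cells make the transcription factor SOX2, and a part of them that is closer to dividing and differentiating also makes SOX9. Folliculostellate cells are star-shaped, non-endocrine cells that form follicles and a network joined by gap junctions, and S100B is their classical marker. Both kinds of cell share CD9, retinaldehyde dehydrogenases and simple epithelial keratins, and *Cd9*, *Krt8* and *Krt18* are also made by many other cells, endocrine cells included. In bulk tissue, fewer cells of a type and less RNA per cell cannot be told apart.

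The values are reads per gene scaled by size factors (FPM, as DESeq2 scales fragments), and a fold change is written as a log2 difference of (FPM + 0.5) with its standard error (SE). A gene was called higher or lower at an adjusted p under 0.05 (limma, Benjamini-Hochberg over all genes tested) together with a log2 fold change beyond 1 in size. Libraries held 19066053 to 28968476 reads on genes in the long-term experiment and 9573101 to 13036900 in the short-term one. *Rb1* stood at 1.86 to 5.09 FPM in the 7 long-term mice on dox and at 16.1 to 20.3 FPM in the 5 12w-res mice, without overlap, as the labels would have it. In the short-term mice *Rb1* ranged from 3.47 to 6.03 FPM over all groups, and the GFP transcript stood at 1025 to 1360 FPM at 16w +dox, 310.0 to 741 FPM at 1d -dox, 80.7 to 171 FPM at 3d -dox and 9.34 to 15.2 FPM at 5d -dox. Pituitary identity was plain from *Pomc*, a hormone precursor gene, which took 12.9 to 43.2% of the reads in the long-term libraries and 4.96 to 17.9% in the short-term ones. The markers themselves were covered by 8 to 5481 reads per long-term library and 12 to 2158 per short-term library, and *S100b* and the short-term dehydrogenases rest on the fewest.

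*Sox2* lies on chromosome 3 (34649995 to 34652461, + strand, GRCm38.p6) inside an intron of the same-strand non-coding gene *Sox2ot*, with which it shares no annotated exon base, and *Sox9* lies on chromosome 11 (112782210 to 112787757, + strand). *Krt8* (chromosome 15, 101996711 to 102004342, − strand) and *Krt18* (chromosome 15, 102028216 to 102032026, + strand) are neighbours, 23873 bases apart on opposite strands, and their proteins pair into the filaments of simple epithelia. *Aldh1a1* lies on chromosome 19 (20492583 to 20643463, + strand), *Aldh1a2* on chromosome 9 (71215789 to 71296243, + strand), *S100b* on chromosome 10 (76253836 to 76261319, + strand, overlapping *Dip2a* on the other strand) and *Cd9* on chromosome 6 (125460266 to 125494760, − strand). *Cd9* and *Krt8* share 218 and 101 exonic bases with unlisted non-coding genes on the other strand. The sources do not say whether counting used the strand, so reads from such antisense partners could have been counted with them. The 250 bases before the annotated start are shown for the keratin pair, whose fold changes had the same sign in each long-term comparison, and for *Aldh1a2*, the marker with the largest fold change between 6w+dox and 12w+dox, all from RefSeq on GRCm38.p6 and written along the strand of the gene. Capitals mark the letters TATAAA and CCAAT on either strand.
Krt8, chr15:102004343-102004592, − strand: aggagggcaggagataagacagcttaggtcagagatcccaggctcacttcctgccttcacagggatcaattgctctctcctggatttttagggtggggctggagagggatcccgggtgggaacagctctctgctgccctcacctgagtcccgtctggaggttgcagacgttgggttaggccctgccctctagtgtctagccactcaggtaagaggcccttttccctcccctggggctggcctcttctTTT
Krt18, chr15:102027966-102028215, + strand: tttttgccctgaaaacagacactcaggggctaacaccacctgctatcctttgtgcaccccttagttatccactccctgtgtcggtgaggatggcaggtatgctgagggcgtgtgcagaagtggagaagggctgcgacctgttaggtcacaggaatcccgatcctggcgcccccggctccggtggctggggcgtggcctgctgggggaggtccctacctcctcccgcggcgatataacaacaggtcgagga
Aldh1a2, chr9:71215539-71215788, + strand: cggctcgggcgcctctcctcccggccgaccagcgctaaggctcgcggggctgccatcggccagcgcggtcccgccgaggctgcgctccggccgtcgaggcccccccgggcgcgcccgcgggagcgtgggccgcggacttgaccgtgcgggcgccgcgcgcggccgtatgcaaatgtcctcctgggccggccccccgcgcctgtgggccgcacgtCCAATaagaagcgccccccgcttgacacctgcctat
TATAAA, the core of a TATA box, was present in the promoter of *Krt8* (2 overlapping matches, on opposite strands) and absent from that of *Krt18*. In *Krt8* these letters span the annotated start, so the printed bases end within them. Over 300 bases (250 before and 50 after the start) it stood in 13.6% of the 32851 promoters in the RefSeq table. CCAAT was found once for *Aldh1a2* and stood in 37.4% of all promoters, and GGGCGG, the GC box, was found in none of these 3 and stood in 35.7% of all. Both strands were searched for each. The letters TTTCCCGC or TTTGGCGC, which E2F factors bind, were found in 1.56% of all promoters and in those of none of the 7 markers with an entry, which says nothing of whether such factors act on these genes. The *Aldh1a2* promoter held 78% G and C, against a median of 52.7% over all promoters.

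The first comparison asked how the tumors changed between 6 and 12 weeks of RB loss. *Aldh1a2*, *Aldh1a1* and *Sox9* were lower at 12w+dox than at 6w+dox, and 0 of the 8 markers were higher. Over all 15315 genes 4.04% were called lower and 3.15% higher. By the adjusted p alone 4 of 8 were lower, against 12.0% of all genes, and in 4 of 8 every 12w+dox mouse lay below every 6w+dox mouse, against 12.4% of all genes. The median log2 fold change was -0.78 over the markers and -0.0063 over all genes.

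The second comparison set 12w-res, in which dox had been stopped for 6 weeks, against tumors of the same total duration. *Krt18*, *Aldh1a2*, *Sox9* and *Cd9* were higher in 12w-res and 0 of 8 were lower, against 6.24% of all genes called higher and 5.04% lower. By the adjusted p alone 7 of 8 were higher, against 19.4% of all genes, and 4 of 8 (*Sox9*, *Cd9*, *Krt8* and *Krt18*) had groups without overlap in that direction, against 17.1% of all genes. *Sox2* was the exception. The median was 0.95 over the markers and -0.0040 over all genes. The third comparison, 12w-res against the earlier state at 6w+dox, called 1 of 8 lower (*Aldh1a2*) and 0 higher, where 5.82% and 5.81% of all genes were called, and its median over the markers was 0.23 against -0.021 over all genes. The 3 comparisons share their mice and are not independent of one another.

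These directions are relative to the bulk of the transcriptome. *Pomc*, the precursor gene of the melanotroph and corticotroph hormones, held 12.9 to 23.0% of reads in the 12w+dox libraries, 13.6 to 32.2% in those of 6w+dox and 39.1 to 43.2% in those of 12w-res. When libraries were scaled by their total reads in place of size factors, the median of all genes moved to 0.29 for 12w+dox against 6w+dox, to -0.61 for 12w-res against 12w+dox and to -0.33 for 12w-res against 6w+dox. On that scale 1 marker was called lower in the first comparison (*Aldh1a2*), and in the second 0 were called higher and *Sox2* was called lower (log2 fold change -1.04, adjusted p = 3.77e-05). Over all genes 2.07% were called lower in the first comparison on total reads, and 1.59% higher and 21.97% lower in the second. Measured from the all-gene median of the same scale, 8 of 8 markers again lay below it in the first comparison and 7 of 8 above it in the second, and the medians were -0.75 and 1.03. With TMM scaling the all-gene medians stayed between -0.013 and 0.0051 in the 3 comparisons.

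**Figure D1:**
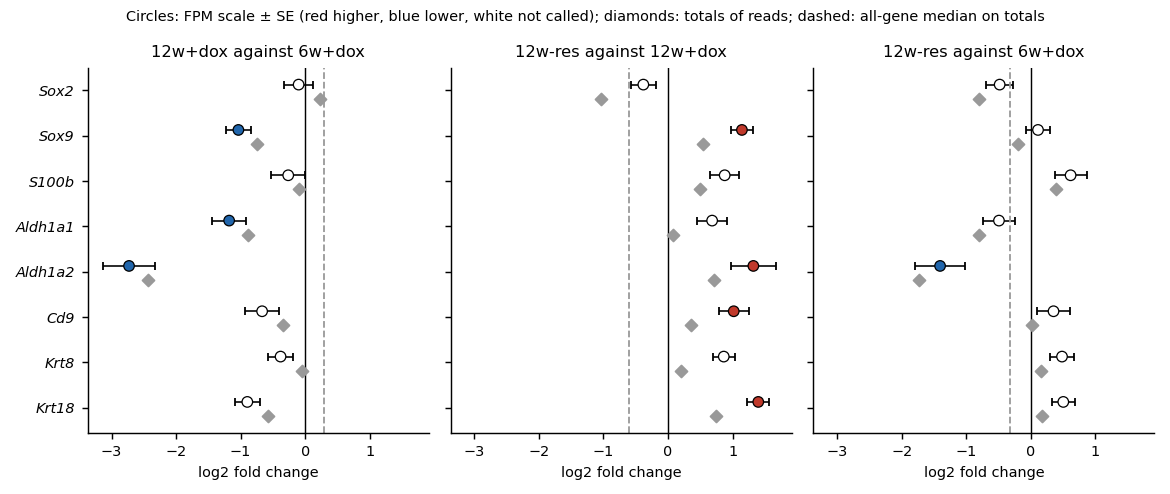
Log2 fold changes of the 8 markers in the 3 long-term comparisons. Circles with SE bars show the FPM scale (red called higher, blue called lower, white not called), grey diamonds show scaling by total reads, and the dashed line is the median of all genes on that second scale. In the second panel 7 of 8 circles lie right of 0, with *Sox2* at -0.38.

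*Sox2*, the stem cell factor itself, did not pass the test in any of the 3 comparisons on the FPM scale. Its levels were 107, 76.2 and 43.5 FPM at 6w+dox, 64.2, 79.0, 55.5 and 67.3 FPM at 12w+dox, and 57.1, 51.1, 48.8, 49.8 and 46.3 FPM in 12w-res. The 6w+dox mice spanned a wider range than both other groups, and all groups overlapped. The log2 fold change was -0.10 (SE 0.22, adjusted p = 0.777) for 12w+dox against 6w+dox, and it was 0.20 without 6w+dox replicate 1, the mouse with the highest level. It was -0.38 (SE 0.20, adjusted p = 0.137) for 12w-res against 12w+dox and -0.48 (SE 0.21, adjusted p = 0.0940) for 12w-res against 6w+dox. *Sox2ot*, the host transcript, stood at 4.37 to 5.75, 4.16 to 7.08 and 5.20 to 9.01 FPM in the same groups and was not called in any of the 3 comparisons (adjusted p = 0.933, 0.0901 and 0.155, limma).

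*Sox9* fell with 6 further weeks on dox and was higher in 12w-res. It stood at 9.61, 6.55 and 6.996 FPM at 6w+dox, at 4.19, 3.64, 2.59 and 3.602 FPM at 12w+dox, and at 7.90, 7.45, 8.74, 8.27 and 9.01 FPM in 12w-res. Every 12w+dox mouse lay below every mouse of both other groups, which overlapped each other. The log2 fold change was -1.03 (SE 0.19, adjusted p = 0.00266, limma) for 12w+dox against 6w+dox. That size is close to the minimum fold, and the call was lost without 12w+dox replicate 3 (-0.91) or 6w+dox replicate 1 (-0.88), in females alone (-0.88, adjusted p = 0.0511), with sex as a covariate (-0.92, adjusted p = 0.0109), with a pseudocount of 1 (-0.95) and on total reads (-0.75). For 12w-res against 12w+dox it was 1.14 (SE 0.17, adjusted p = 1.45e-04), and the call held with each mouse left out. For 12w-res against 6w+dox it was 0.11 (SE 0.18, adjusted p = 0.673), and -0.20 when scaled by total reads.

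Since both factors are read in the same library, their ratio does not depend on any scaling. The ratio of *Sox9* reads to *Sox2* reads was 0.0897, 0.0859 and 0.161 at 6w+dox, 0.0652, 0.0461, 0.0466 and 0.0535 at 12w+dox, and 0.138, 0.146, 0.179, 0.166 and 0.195 in 12w-res. The 12w+dox mice were the lowest and did not overlap either other group, and 6w+dox replicate 3 lay within the range of 12w-res. This ratio and that of the keratins were chosen after the levels had been seen, and no test was run on them.

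**Figure D2:**
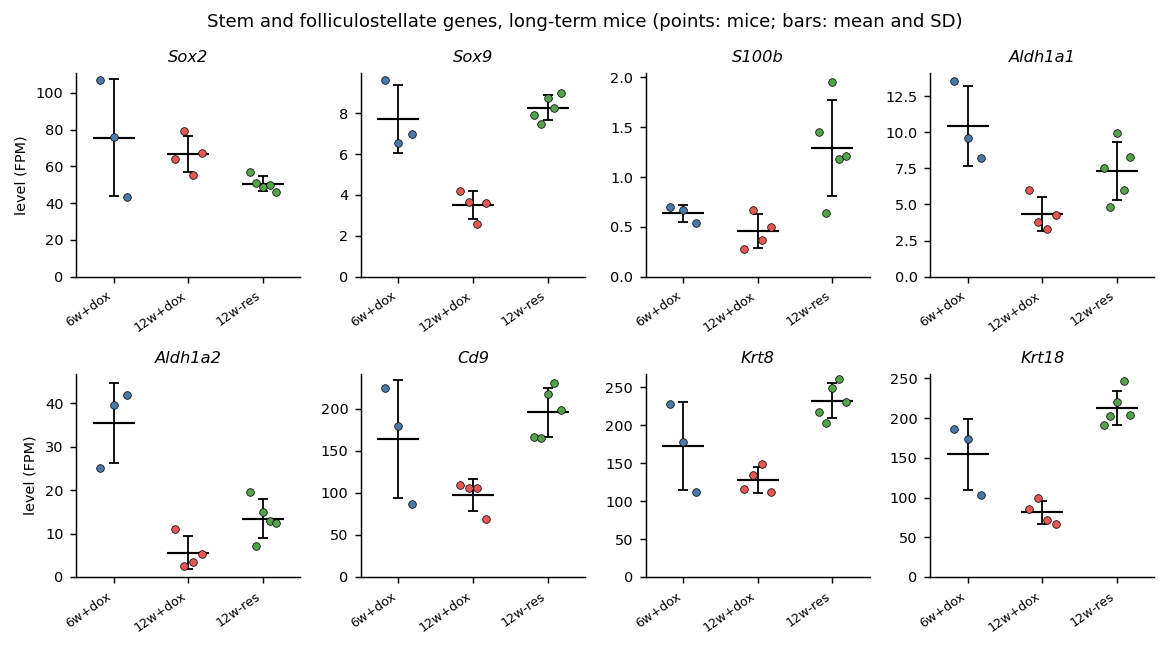
Levels of the 8 markers (FPM, linear axes from 0) in the 12 long-term mice, 1 point per mouse, with the mean and SD of each group. *Sox9* is lowest at 12w+dox, at 2.59 to 4.19 FPM, with no overlap, while *Sox2* overlaps in all groups.

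The retinaldehyde dehydrogenases make retinoic acid, a signal for progenitor cells in the pituitary. *Aldh1a2* had the largest fold change of the 8 markers in both comparisons with 6w+dox. It stood at 24.98, 39.6 and 41.9 FPM at 6w+dox, at 11.1, 2.48, 3.39 and 5.39 FPM at 12w+dox, and at 19.5, 7.13, 15.1, 12.9 and 12.3 FPM in 12w-res. The 6w+dox mice lay above all others, and the 12w+dox and 12w-res mice overlapped in 1 mouse each. It fell by 2.73 on the log2 scale (SE 0.40, adjusted p = 7.02e-04, limma), or 6.63-fold, between 6w+dox and 12w+dox. It was higher by 1.32 (SE 0.35, adjusted p = 0.00897) in 12w-res than at 12w+dox, and this call was lost in females alone (1.24, adjusted p = 0.103). In 12w-res it remained below 6w+dox (log2 fold change -1.41, SE 0.38, adjusted p = 0.0118), a call that was lost without 6w+dox replicate 2 (-1.31, adjusted p = 0.0518).

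*Aldh1a1*, which encodes a related enzyme that is used as a stem cell marker in many tissues, stood at 13.6, 9.58 and 8.20 FPM at 6w+dox, at 6.04, 3.76, 3.30 and 4.27 FPM at 12w+dox, and at 7.54, 4.81, 9.92, 6.02 and 8.29 FPM in 12w-res. The 12w+dox mice lay below all 6w+dox mice, and the 12w-res mice overlapped both groups. It fell by 1.18 on the log2 scale (SE 0.26, adjusted p = 0.00691, limma) between 6w+dox and 12w+dox. That call was lost without 6w+dox replicate 1 (-0.98, adjusted p = 0.0340) and in females alone (-1.02, adjusted p = 0.0751). The difference of 12w-res from 12w+dox, 0.68 (SE 0.23, adjusted p = 0.0298), passed the adjusted p and not the minimum fold, and the difference from 6w+dox was -0.49 (SE 0.25, adjusted p = 0.140).

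*S100b*, a calcium-binding protein and the classical folliculostellate marker, was scarce, with 8 to 43 reads per library. It stood at 0.699, 0.668 and 0.538 FPM at 6w+dox, at 0.279, 0.670, 0.370 and 0.503 FPM at 12w+dox, and at 1.46, 0.634, 1.96, 1.18 and 1.22 FPM in 12w-res. In 12w-res 4 of 5 mice lay above every other mouse, and replicate 2 lay among the others. The log2 fold change of 12w-res against 12w+dox was 0.88 (SE 0.23, adjusted p = 0.00806, limma), which did not reach the minimum fold. At so low a level the size depends on the pseudocount and the model. It was 1.30 with a pseudocount of 0.1 and 1.5 with both edgeR and DESeq2 on the recovered reads, past the minimum fold in each, and 1.03 without 12w-res replicate 2. Against 6w+dox the values were -0.26 (SE 0.26, adjusted p = 0.497) for 12w+dox and 0.61 (SE 0.25, adjusted p = 0.0714) for 12w-res. *S100b* is also made by Schwann cells, and the summed level of 6 Schwann and oligodendrocyte markers was 72.5 to 88.2 FPM at 6w+dox, 65.6 to 101 FPM at 12w+dox and 45.8 to 59.99 FPM in 12w-res. Between 12w-res and 12w+dox 0 of these 6 were called, with 2 of 6 above 0 and a median log2 fold change of -0.28, and their part in the level of *S100b* was not tested.

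*Cd9*, a tetraspanin of the cell surface, stood at 224, 179 and 87.2 FPM at 6w+dox, at 109, 105, 106 and 68.8 FPM at 12w+dox, and at 167, 166, 217, 230.4 and 198 FPM in 12w-res. All 12w-res mice lay above all 12w+dox mice, and 6w+dox spanned both. It was higher by 1.02 on the log2 scale (SE 0.23, adjusted p = 0.00336, limma) in 12w-res than at 12w+dox, just past the minimum fold. The value was 0.86 without 12w+dox replicate 4, 0.98 without 12w-res replicate 3, 0.96 without 12w-res replicate 4 and 0.98 with sex as a covariate, all short of it, and in females alone it was 1.002 with an adjusted p of 0.0611. The difference of 12w+dox from 6w+dox was -0.67 (SE 0.26, adjusted p = 0.0800), and it passed the test without 6w+dox replicate 3 (-1.07, adjusted p = 0.00122). The difference of 12w-res from 6w+dox was 0.35 (SE 0.25, adjusted p = 0.301), and -0.049 without that same mouse.

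The keratin pair differed between groups with the same sign and unequal size. *Krt18* stood at 187, 174 and 103 FPM at 6w+dox, at 86.1, 100.002, 71.3 and 67.2 FPM at 12w+dox, and at 191, 202, 220.1, 247 and 204 FPM in 12w-res. The 3 groups did not overlap, with 12w+dox lowest and 12w-res highest. *Krt18* was higher by 1.40 on the log2 scale (SE 0.17, adjusted p = 2.68e-05, limma) in 12w-res than at 12w+dox, with each mouse left out and in females alone (1.26, adjusted p = 0.00708). Its difference at 12w+dox from 6w+dox, -0.90 (SE 0.19, adjusted p = 0.00583), did not reach the minimum fold, and it did so without 6w+dox replicate 3 (-1.16) or 12w+dox replicate 2 (-1.002). Its difference in 12w-res from 6w+dox was 0.50 (SE 0.18, adjusted p = 0.0469), also short of that fold.

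*Krt8* stood at 228, 178 and 111 FPM at 6w+dox, at 116, 133.9, 149 and 112 FPM at 12w+dox, and at 217, 203, 249.5, 260.5 and 231 FPM in 12w-res. All 12w-res mice lay above all 12w+dox mice, and 6w+dox overlapped both groups. The difference of 12w-res from 12w+dox was 0.86 (SE 0.17, adjusted p = 0.00139, limma), which passed the adjusted p and not the minimum fold. The differences from 6w+dox were -0.38 (SE 0.19, adjusted p = 0.172) for 12w+dox and 0.48 (SE 0.19, adjusted p = 0.0592) for 12w-res. The ratio of *Krt18* reads to *Krt8* reads was 0.818, 0.975 and 0.927 at 6w+dox, 0.743, 0.747, 0.478 and 0.600 at 12w+dox, and 0.882, 0.994, 0.882, 0.948 and 0.885 in 12w-res. It was below that of every other long-term mouse in all 4 12w+dox mice.

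On the FPM scale most of the markers differed among the 6w+dox mice in the order of *Pomc*. The share of *Pomc* in the reads was 32.2, 19.97 and 13.6% in replicates 1, 2 and 3, and 6 of the 8 markers (*Sox2*, *S100b*, *Aldh1a1*, *Cd9*, *Krt8* and *Krt18*) had their highest level in replicate 1 and their lowest in replicate 3. *Aldh1a2* had the reverse order, lowest in replicate 1, and *Sox9* was highest in replicate 1 and lowest in replicate 2. The scaling had the order of *Pomc* too, since 1 read stood for 0.0582, 0.0445 and 0.0414 FPM in replicates 1, 2 and 3. In recovered reads, not corrected for depth, *Sox2* and *Aldh1a1* kept the order. *S100b* (12, 15 and 13 reads), *Cd9*, *Krt8* and *Krt18* did not. The libraries held 20110433, 22384365 and 19066053 reads on genes in replicates 1, 2 and 3. The order in recovered reads therefore mixes level with depth. With 3 mice this is a description, and the part of *Pomc* cells or of the scaling in these levels was not tested.

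**Figure D3:**
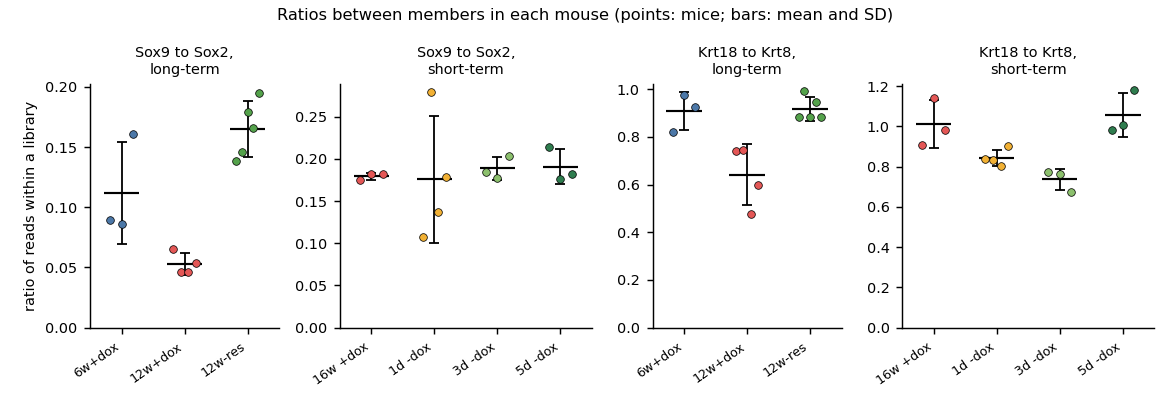
Ratio of reads between 2 markers within each library, 1 point per mouse, with the mean and SD of each group on linear axes from 0. In the long-term mice both ratios are lowest at 12w+dox (0.0461 to 0.0652 for *Sox9* to *Sox2* and 0.478 to 0.747 for *Krt18* to *Krt8*).

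Per kilobase of the longest annotated transcript, the order of the levels was nearly the same in the 3 long-term groups. *Cd9* had the highest mean (133, 79.1 and 159 FPM per kb at 6w+dox, 12w+dox and 12w-res), and the ranges of *Cd9* and the next keratin overlapped in each group. *Sox2* followed the keratins in every group, at a mean of 36.8, 32.3 and 24.6 FPM per kb, below both keratins without overlap. *Aldh1a2* followed at 15.7, 2.46 and 5.91 FPM per kb and *Aldh1a1* at 4.43, 1.84 and 3.103 FPM per kb, and their ranges overlapped at 12w+dox and in 12w-res but not at 6w+dox. *Sox9* (1.87, 0.848 and 2.001 FPM per kb) and *S100b* (0.428, 0.307 and 0.868 FPM per kb) were the lowest in each group, and their ranges did not overlap each other. In the short-term libraries *Krt18* had the highest mean in all 4 groups (26.4, 28.6, 19.7 and 34.3 FPM per kb from 16w +dox to 5d -dox), followed by *Krt8*, *Cd9* and *Sox2* in that order in each. The ranges of *Krt18* and *Krt8* overlapped at 1d -dox and 3d -dox, and those of *Krt8* and *Cd9* at 16w +dox and 5d -dox, so these neighbours were not separated there. The tables were prepared and scaled separately, so levels are not compared across them.

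The short-term experiment asked what happens in the first days after dox is stopped. None of the 7 listed markers was called in any of its 4 comparisons, where few genes were called at all (limma). For 1d -dox against 16w +dox 0.00716% of 13958 genes were called higher and 0.0358% lower, for 3d -dox against 16w +dox 0.0788% and 0.0502%, for 5d -dox against 16w +dox 0.0860% and 0.107%, and for 5d -dox against 1d -dox 0.00716% in each direction. At an unadjusted p under 0.05 the markers numbered 1, 3, 3 and 0 in these comparisons, against 1823, 2323, 1889 and 883 of the 13958 genes, and edgeR and DESeq2 on the recovered reads also called 0 of 7 in each. *Cd9* at 3d -dox had the smallest adjusted p. It stood at 19.8, 29.7 and 18.3 FPM at 16w +dox and at 13.6, 15.1 and 10.4 FPM at 3d -dox, both groups male, with no overlap and a log2 fold change of -0.75 (SE 0.20, adjusted p = 0.105). At 1d -dox it stood at 19.1, 23.9, 16.3 and 17.7 FPM, and at 5d -dox at 18.1, 17.97 and 27.2 FPM, both within reach of 16w +dox.

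*Krt18* stood at 40.1, 35.4 and 38.2 FPM at 16w +dox, at 39.4, 45.8, 34.4 and 44.7 FPM at 1d -dox, at 29.8, 31.7 and 23.3 FPM at 3d -dox, and at 46.0, 41.1 and 60.7 FPM at 5d -dox. The 3d -dox males lay below every other mouse, by -0.43 (SE 0.15, adjusted p = 0.173) on the log2 scale from 16w +dox, and the 5d -dox females lay above the 16w +dox males by 0.36 (SE 0.15, adjusted p = 0.304). *Krt8* had its smallest adjusted p at 1d -dox (0.36, SE 0.12, adjusted p = 0.213), with 44.2, 31.1 and 38.9 FPM at 16w +dox and 47.1, 55.0, 42.8 and 49.6 FPM at 1d -dox, which overlapped. The *Krt18* to *Krt8* ratio was 0.909 to 1.14 at 16w +dox, 0.803 to 0.902 at 1d -dox, 0.676 to 0.772 at 3d -dox and 0.983 to 1.18 at 5d -dox.

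*Sox2* stood over these days at 13.4, 11.3 and 12.6 FPM at 16w +dox, 16.3, 15.6, 14.5 and 11.2 FPM at 1d -dox, 13.1, 12.4 and 12.7 FPM at 3d -dox, and 14.2, 16.1 and 15.8 FPM at 5d -dox. Its log2 fold changes from 16w +dox were 0.19 (SE 0.11), 0.029 (SE 0.12) and 0.29 (SE 0.12), with adjusted p of 0.470, 0.929 and 0.297 (limma). *Sox9* stood at 2.35, 2.06 and 2.30 FPM at 16w +dox, 1.75, 4.37, 1.99 and 2.01 FPM at 1d -dox, 2.41, 2.20 and 2.57 FPM at 3d -dox, and 3.06, 2.83 and 2.87 FPM at 5d -dox. The 5d -dox females lay above the 16w +dox males in both *Sox2* and *Sox9* without overlap, and neither difference passed the test (adjusted p = 0.297 and 0.556). The share of all genes without overlap was not counted for the short-term comparisons. Lack of overlap there therefore cannot be set against all genes. *Aldh1a2* was at 0.434 to 1.04 FPM at 16w +dox and 0.734 to 1.61 FPM at 3d -dox (log2 fold change 0.51, SE 0.22, adjusted p = 0.268), and *Aldh1a1* at 0.499 to 1.12 and 0.347 to 1.03 FPM, on 12 to 78 reads for the pair over all short-term libraries. A p that misses the threshold does not show that levels were equal.

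**Figure D4:**
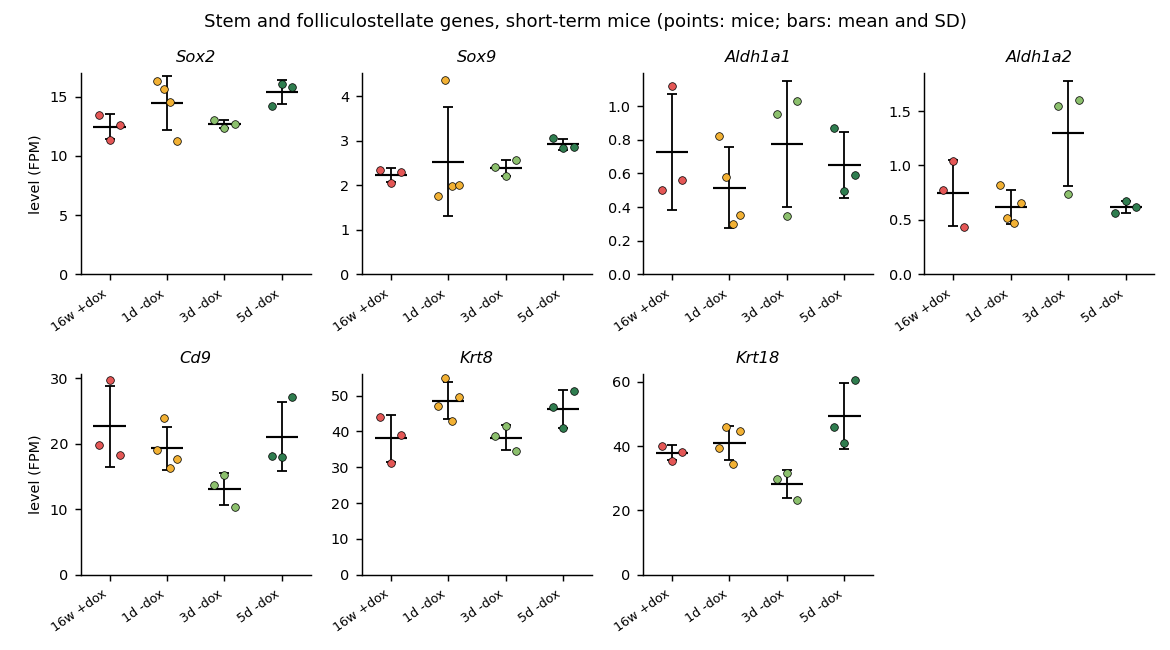
Levels of the 7 markers listed in the short-term table (FPM, linear axes from 0) in 13 mice, 1 point per mouse, with the mean and SD of each group. *Cd9* and *Krt18* are lowest at 3d -dox, at 10.4 to 15.1 and 23.3 to 31.7 FPM, without overlap with 16w +dox, and no difference passed the test. The share of all genes without such overlap was not counted.

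Other genes of the same cells and pathways were taken from 9 lists with 106 genes in all. Of the 98 measured in the long-term mice, 23 were lower and 1 higher at 12w+dox than at 6w+dox (23.5% and 1.02%), 29 were higher and 4 lower in 12w-res than at 12w+dox (29.6% and 4.08%), and 10 were higher and 8 lower in 12w-res than at 6w+dox (10.2% and 8.16%). On total reads these counts became 12 lower and 4 higher, 10 higher and 16 lower, and 4 higher and 14 lower. On that scale 2.07% of all 15315 genes were lower and 6.91% higher in the first comparison, 1.59% higher and 21.97% lower in the second, and 3.25% higher and 10.7% lower in the last. In the short-term comparisons 0 of the 84 measured were called. Fold changes of list genes are printed below only where the call held with each mouse left out, a choice made after those fits had been seen, and none of them reversed its sign under any alternative. The same counts hold genes taken by the naming rule whose calls were lost in at least 1 such fit. For 12w+dox against 6w+dox these were *Cd24a* and *Cst3* (2 of 7 fits each), *Crabp2* and *Sox3* (3 of 7 each), *Rbp4* and *S100a6* (4 of 7 each) and *Sox10* (without 12w+dox replicate 4, adjusted p = 0.0579, limma). For 12w-res against 12w+dox they were *Dsp* (5 of 9 fits), *Gja1* (0.98 without 12w+dox replicate 2), *Krt23* (-0.86 without 12w+dox replicate 3) and *Yap1* (0.998 without 12w+dox replicate 3). For 12w-res against 6w+dox they were *Aldh1a3* and *Prom1* (3 of 8 fits each), *Krt14* (6 of 8) and *Vim* (0.97 without 6w+dox replicate 3). In females alone the calls of *Cryab* at 12w+dox and of *Lcn2* in 12w-res against 12w+dox were lost. Calls lost on total reads are not named one by one. On that scale the calls fell from 23 to 12 lower in the first comparison and from 29 to 10 higher in the second.

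Among the 10 markers of stem cell clusters in pituitary single-cell atlases, 6 fell between 6w+dox and 12w+dox and 6 were higher in 12w-res than at 12w+dox, with medians of -1.12 and 1.14. *Mia*, a small secreted protein, fell by 2.30 on the log2 scale (SE 0.35, adjusted p = 8.73e-04, limma) from 26.7 to 48.6 FPM to 5.51 to 9.92 FPM, and in 12w-res it remained below 6w+dox by -1.75 (adjusted p = 0.00131). *Rbpms*, an RNA-binding protein, fell by 2.15 (adjusted p = 0.00121) and *Cyp2f2*, a cytochrome P450, by 1.86 (adjusted p = 0.00702). *Lcn2*, a secreted lipocalin induced in inflammation, was higher by 2.18 (SE 0.44, adjusted p = 0.0017) in 12w-res than at 12w+dox, at 219 to 710.5 FPM against 58.8 to 283 FPM. *Zfp36l1*, which promotes decay of target mRNAs, was higher by 1.46 (adjusted p = 0.0015) and *Cpxm2* by 1.66 (adjusted p = 7.52e-04).

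Of 12 measured progenitor transcription factors 4 were lower at 12w+dox than at 6w+dox and 3 were higher in 12w-res than at 12w+dox, while 2 were higher and 2 lower in 12w-res than at 6w+dox. *Hes1*, a target of Notch signalling, stood at 8.03 to 13.9 FPM at 6w+dox, 2.59 to 5.34 FPM at 12w+dox and 7.82 to 12.6 FPM in 12w-res, with log2 fold changes of -1.42 (adjusted p = 0.00219) and 1.19 (adjusted p = 9.68e-04). *Yap1*, the effector of the Hippo pathway, fell by 1.498 (adjusted p = 0.00301) between 6w+dox and 12w+dox. *Prrx1*, known from mesenchymal and progenitor cells, was higher in 12w-res than at 6w+dox by 1.24 (adjusted p = 2.30e-04), at 164 to 236 FPM against 59.5 to 93.9 FPM. Of 12 further SOX genes 4 were lower at 12w+dox than at 6w+dox. *Sox18*, which is known from endothelium, was at 2.002 to 5.69 FPM at 12w+dox and 12.6 to 16.1 FPM in 12w-res (1.79, adjusted p = 4.04e-05), and *Sox11*, an embryonic neural and progenitor factor, was lower in 12w-res than at 12w+dox by -1.37 (adjusted p = 5.86e-04).

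Of the 10 surface and cytoskeletal markers of stem cells, 2 were lower and 1 higher at 12w+dox than at 6w+dox, and 5 were higher in 12w-res than at 12w+dox. *Nes*, an intermediate filament of progenitors and of growing vessels, stood at 18.2 to 18.6 FPM at 6w+dox, 4.28 to 9.39 FPM at 12w+dox and 16.5 to 27.7 FPM in 12w-res (log2 fold changes -1.48, adjusted p = 0.00157, and 1.70, adjusted p = 5.22e-05, limma). *Cd24a*, a surface glycoprotein, was higher in 12w-res than at 12w+dox by 2.24 (SE 0.17, adjusted p = 2.85e-07) and than at 6w+dox by 3.24 (adjusted p = 3.23e-08, limma). Its mean was 84.7 FPM at 6w+dox, 171 FPM at 12w+dox and 817 FPM in 12w-res. *Ly6a* fell by 1.74 (adjusted p = 0.0027) between 6w+dox and 12w+dox and stood at 5.76 to 13.2 FPM in 12w-res, lower than at 6w+dox (-1.84, adjusted p = 4.82e-04). Of 10 measured folliculostellate markers and secreted factors 3 were lower at 12w+dox than at 6w+dox and 4 were higher in 12w-res than at 12w+dox. *Gja1*, the connexin of the gap junctions between these cells, fell by 1.496 (adjusted p = 0.00186) between 6w+dox and 12w+dox and *Cryab* by 1.28 (adjusted p = 0.00418). *Anxa1*, a mediator of glucocorticoid action in folliculostellate cells, was higher in 12w-res by 1.69 (adjusted p = 2.36e-04) than at 12w+dox and by 2.24 (adjusted p = 5.36e-05) than at 6w+dox. *Vim*, a filament of mesenchymal and folliculostellate cells, was higher by 1.66 (adjusted p = 4.74e-05) than at 12w+dox. *Gfap*, the glial filament, was low throughout, at 2.76 to 5.22, 1.84 to 2.45 and 2.59 to 6.20 FPM.

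In the retinoic acid pathway 3 of 15 measured genes were lower at 12w+dox than at 6w+dox, and 4 were higher and 1 lower in 12w-res than at 12w+dox. The receptor gene *Rara* fell by 1.15 (adjusted p = 0.00582, limma) between 6w+dox and 12w+dox. The carrier gene *Rbp4* stood at 0.866 to 2.65 FPM at 12w+dox and 5.96 to 14.9 FPM in 12w-res (2.29, adjusted p = 5.21e-05), and *Crabp2*, which carries retinoic acid to its receptors, was higher by 1.37 (adjusted p = 0.00231). *Crabp1* had 17 to 71 reads per library at 12w+dox and 0 reads in all 5 12w-res libraries. Of 11 measured keratin and desmosome genes 0 were called between 6w+dox and 12w+dox, while 3 were higher and 1 lower in 12w-res than at 12w+dox. *Krt19* was among them at 0.528 to 2.24 FPM against 0.0559 to 0.454 FPM (1.26, adjusted p = 0.00651). In the S100 family 2 of 10 were lower at 12w+dox than at 6w+dox and 3 were higher in 12w-res than at 12w+dox. *S100a10* fell by 1.64 (adjusted p = 8.16e-04), while *S100a6* and *S100a11* were higher in 12w-res by 1.96 (adjusted p = 1.41e-04) and 1.66 (adjusted p = 4.86e-05). Of 10 measured tetraspanins and partners 0 were called higher in 12w-res than at 12w+dox, 9 of 10 had a log2 fold change above 0 with a median of 0.30, and the partner gene *Igsf8* was lower (-1.29, adjusted p = 1.54e-04).

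**Figure D5:**
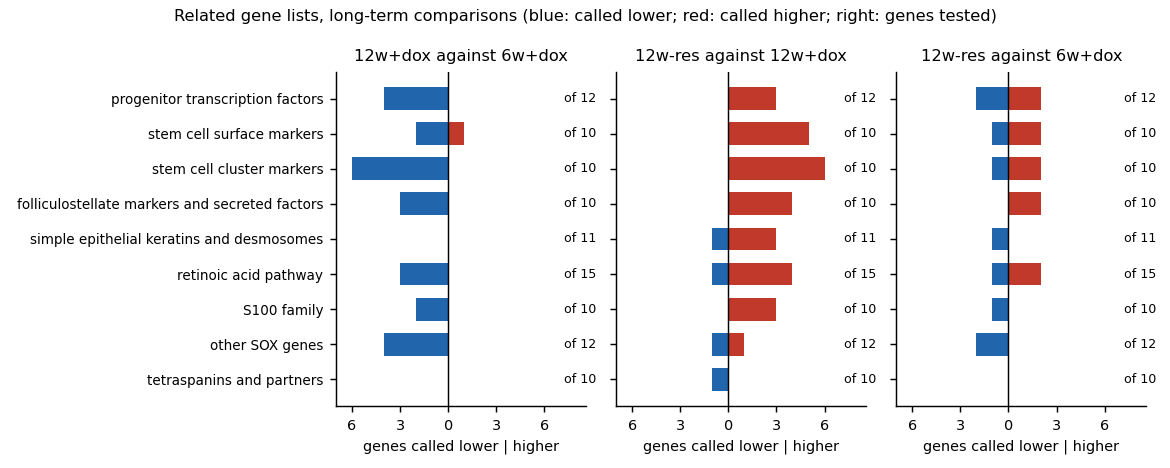
Number of genes called lower (blue, to the left) and higher (red, to the right) in 9 related gene lists in the 3 long-term comparisons, with the number of genes tested at the right of each bar. Stem cell cluster markers hold the most calls, 6 of 10 lower in the first comparison and 6 of 10 higher in the second.

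Markers of other cell types moved between the same groups. The summed level of 7 endothelial markers was 189 to 244 FPM at 6w+dox, 66.7 to 135 FPM at 12w+dox and 201 to 275 FPM in 12w-res, the same order as for *Sox9*, and 3 of 7 were lower in the first comparison and 5 of 7 higher in the second. The 9 fibroblast and mural markers summed to 390.2 to 429, 183 to 556 and 1003 to 1596 FPM, with 9 of 9 higher in 12w-res than at 12w+dox. The 7 markers of pituicytes, the glia of the neural lobe, summed to 56.4 to 110.5, 24.7 to 40.8 and 37.5 to 56.1 FPM. Of these, 6 of 7 were lower at 12w+dox than at 6w+dox and 5 of 7 lower in 12w-res than at 6w+dox. The 4 measured somatotroph markers summed to 46313 to 81089, 957 to 8039 and 6556 to 25357 FPM, with 4 of 4 and 2 of 4 lower in the same comparisons. Both sums stayed below 6w+dox in 12w-res, as *Aldh1a2* did. The 8 macrophage and leukocyte markers summed to 105 to 152, 152 to 204 and 252 to 507 FPM. The 5 cycling markers summed to 281 to 414, 259 to 372 and 20.7 to 28.0 FPM, with 5 of 5 lower in 12w-res. None of these lists was at 0 in any group, and their part in the levels of the 8 markers was not tested.

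For each marker called in a long-term comparison, the 3 genes most like it were those with the smallest root mean square difference in centred log2(FPM + 0.5) over the 12 mice. For *Sox9* these were *Nek6* (0.0926), *Scg3* (0.1302) and *Bet1* (0.147), and for *Aldh1a1* they were *Liph* (0.216), *Itih2* (0.227) and *Enkur* (0.231). For *Aldh1a2* they were *Dnah9* (0.350), *Rbpms* (0.351) and *Ccnd2* (0.359), of which *Rbpms* is also in the stem cell cluster list. *Cd9* was nearest to *Tpt1* (0.118), *Rps26* (0.124) and *Rps6* (0.147), of which *Rps26* and *Rps6* encode ribosomal proteins. *Krt18* was nearest to *Pdia6* (0.117), *Manf* (0.123) and *Ifnar2* (0.138), of which *Pdia6* and *Manf* encode proteins of the endoplasmic reticulum. Among the distances from these 5 markers to another of the 8, that of *Cd9* and *Krt8* was the smallest (0.193, rank 23 among all genes for *Cd9*). *Sox2* stood at ranks 6164 to 9465 from them. These distances describe 12 mice in 3 groups and carry no test.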

How the data were processed

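Whole pituitaries and pituitary tumors of 25 mice were snap frozen, and RNA libraries were made after poly(A) selection (long-term, 12 mice) or removal of ribosomal RNA (short-term, 13 mice). Per the study's methods, the authors mapped paired-end reads with STAR to mm10 and used RefSeq genes. The counting tool and its strand setting are not given in the sources used here. The deposited values are a signal per gene and mouse, namely counts divided by DESeq2 size factors and written in the FPM unit of that tool. Each value was a whole multiple of 1 read within 0.1 read in 100% of cases, so whole reads were recovered from them. Among the short-term lines 4 named no gene and held 68.8 to 75.0% of a library. They were left out, as were 2 lines without a name in the long-term table.

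Groups were taken from the labels, and nothing there says that mice of a group were littermates or shared a batch. Following the read filter in the study's methods, a gene was tested if over 50% of the mice in 1 group or more had 10 recovered reads or above. The test was run on log2(FPM + 0.5) with limma 3.58.1 (R 4.3.3), all groups of an experiment in 1 fit. The Benjamini-Hochberg adjustment ran over all genes tested. The fold change on this scale understates the change of low genes. On simulated data limma recovered 195 of 200 changed genes among 14909 for 12w+dox against 6w+dox. For 1d -dox against 16w +dox it recovered 185 of 200 among 13426. Recovery at the fold changes and the spread between mice seen for the markers was not tested. Libraries of 1 group differed by more than counting noise. Alternatives were DESeq2 1.42.0 and edgeR 4.0.16 on the recovered reads, other scalings, pseudocounts and filters, females alone, sex as a covariate, the replicate number as a block, only the groups compared, no minimum fold, and leaving out each mouse.

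Named were the 8 markers, at most 3 called genes of largest fold change per related list and comparison, and the 3 genes nearest to each called marker. *Sox2ot* and *Gfap* were added after their values had been seen. The markers and lists were chosen with earlier results of these data known. Positions come from GENCODE vM21 and promoters from RefSeq, both on GRCm38.p6, and levels per kilobase use the longest annotated transcript. A gene that the naming rule would include is not reported here.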

Additional observations from a re-analysis of the deposited data

Results flagged for a closer look

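In 2 of 23 marker and group combinations with 4 or 5 mice, 1 mouse stood apart from the others of its group by Dixon's criterion, which chance alone meets in about 1 of 20 groups. *Cd9* was 68.8 FPM in 12w+dox replicate 4 and 105 to 109 FPM in the other 3 mice of that group. *Sox9* was 4.37 FPM in 1d -dox replicate 2 and 1.75 to 2.01 FPM in the other 3. Without that mouse the log2 fold change of *Sox9* at 1d -dox from 16w +dox was -0.18 in place of 0.076, and neither value passed the test.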

How the results depend on the processing

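Among the values of single markers under long-term alternatives, 463 kept their direction and side of the threshold, 20 lost the call, 13 gained it and 5 changed sign, and among the short-term ones 465 kept both and 25 changed sign. Scaled by total reads, 1 marker was lower at 12w+dox than at 6w+dox, 0 were higher and 1 lower in 12w-res than at 12w+dox, *Sox2* at 12w+dox against 6w+dox was 0.22 and *Sox9* in 12w-res against 6w+dox -0.20. Genes called higher and lower became 1058 and 317, 244 and 3364, and 497 and 1638 in the 3 long-term comparisons, in place of 483 and 619, 955 and 772, and 890 and 892. In females alone 1 marker was lower at 12w+dox and 2 were higher in 12w-res than at 12w+dox, *Sox2* at 12w+dox was 0.0087, and 282 genes were higher and 316 lower at 12w+dox. Fewer mice enter that fit, and its count of all genes for 12w-res against 12w+dox is not given here. Without a minimum fold the counts were 1600 and 1833, 2975 and 2807, and 2606 and 2566, with 7 markers higher in 12w-res than at 12w+dox and 1 higher than at 6w+dox. Short-term counts were small and moved with most settings, and the cause was not tested. DESeq2 called 29 genes higher and 84 lower for 1d -dox against 16w +dox, 72 and 32 for 3d -dox, 36 and 103 for 5d -dox, and 4 and 3 for 5d -dox against 1d -dox, in place of 1 and 5, 11 and 7, 12 and 15, and 1 and 1. edgeR called 0 higher at 1d -dox. With only the groups compared the counts were 2 and 1, 0 and 1, and 1 and 4. A pseudocount of 1 gave 0 and 2 at 1d -dox, 7 higher at 3d -dox and 9 lower at 5d -dox, and one of 0.1 gave 8 higher at 1d -dox. With 10 reads in every sample 0 were higher and 3 lower at 1d -dox, on total reads 1 (1d -dox) and 3 (3d -dox) were lower, and without a minimum fold the counts were 6 and 8, 22 and 28, and 47 and 24. *Aldh1a2* for 5d -dox against 1d -dox was -0.0017 with DESeq2, -0.0055 with edgeR and -0.034 on total reads.

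The replicate numbers do not pair the mice, since deviations of mice with the same number correlated at -0.165 to 0.237 (10 long-term pairs) and -0.208 to 0.168 (18 short-term pairs). With the replicate block the counts of genes higher and lower were 5 and 3 for 1d -dox, 0 and 1 for 3d -dox, and 7 lower for 5d -dox, *Sox2* for 5d -dox against 1d -dox was -0.012, and the counts of markers called moved by no more than 1.5 times.

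Leaving out 1 mouse gave 374 to 805 genes higher, 432 to 869 genes lower and 1 to 5 markers lower at 12w+dox against 6w+dox. In 12w-res against 6w+dox it gave 829 to 993 genes lower and 0 to 1 marker lower. It gave 0 to 7 genes higher and 0 to 6 lower at 1d -dox, 0 to 30 and 1 to 9 at 3d -dox, 1 to 17 and 1 to 14 at 5d -dox, and 1 to 2 in each direction for 5d -dox against 1d -dox. Markers that changed sign ranged as follows. *Sox2* was -0.45 to 0.20 at 12w+dox against 6w+dox, and *Cd9* was -0.049 to 0.63 in 12w-res against 6w+dox. At 1d -dox against 16w +dox *Sox9* was -0.18 to 0.19, *Aldh1a2* -0.34 to 0.025 and *Cd9* -0.34 to 0.0017. At 3d -dox *Sox2* was -0.035 to 0.082, *Aldh1a1* -0.11 to 0.32 and *Krt8* -0.12 to 0.13. At 5d -dox *Aldh1a1* was -0.20 to 0.15, *Aldh1a2* -0.33 to 0.035 and *Cd9* -0.29 to 0.12. For 5d -dox against 1d -dox *Sox2* was -0.012 to 0.16, *Aldh1a2* -0.054 to 0.095, *Cd9* -0.078 to 0.22 and *Krt8* -0.15 to 0.017. *S100b* and the short-term dehydrogenases are limited by depth.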
